A study of Mus musculus with 12 samples.

Results

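The integrated stress response and the unfolded protein response of the endoplasmic reticulum (ER) were followed through 10 genes, Atf4, Ddit3, Trib3, Asns, Psat1, Mthfd2, Hspa5, Xbp1, Gdf15 and Fgf21. They were taken by their gene symbol from the 21493 genes of the count tables, whatever their values, and 9 of them were among the 13158 genes with enough reads to be tested; Fgf21 was not. RNA was measured by poly-A RNA-seq in cardiomyocytes isolated from the hearts of 3-month-old mice that carried desmin, the muscle intermediate filament protein (Des+/+), or lacked it (Des-/-), and that had undergone swimming exercise (swim) or not (non-swim). The 4 groups, Des+/+ non-swim, Des+/+ swim, Des-/- non-swim and Des-/- swim, held 3 libraries each. According to the study's methods, mice of both genotypes carried a GFP transgene driven by the cardiomyocyte promoter αMHC, each library pooled the cells of several mice irrespective of sex, and hearts were perfused with trypsin and collagenase and the cells harvested at once. A replicate is therefore a pool, and the p-values measure the spread between pools.

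When unfolded protein, amino acid shortage, mitochondrial damage or viral RNA activates one of the 4 eIF2α kinases, general translation slows while the mRNA of the transcription factor ATF4 is translated better. ATF4, with its partners, induces CHOP (Ddit3), the pseudokinase Trib3, amino acid synthesis enzymes such as Asns and Psat1, the mitochondrial folate enzyme Mthfd2 and the secreted factors Gdf15 and Fgf21. In the ER, the chaperone BiP (Hspa5) holds the stress sensors inactive, and IRE1 splices the Xbp1 mRNA into the form that codes for the active factor. Gene counts show neither the translation of Atf4 nor the splicing of Xbp1, and they do not measure the proteins.

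Short stretches of promoters are shown because they hold the elements by which these arms are usually told apart. All 10 genes had a promoter in the RefSeq table (GRCm38.p6), here 250 bases before to 50 bases after the start site. The C/EBP-ATF response element was searched as TGATGNAA on both strands, which 3.97% of 32851 promoters held. It was found in Asns, Trib3 and Fgf21. The ER stress response element was searched as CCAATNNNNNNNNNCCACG, which 0.119% of promoters held. Of the 10 genes, Hspa5 held it. The unfolded protein response element, TGACGTGG, was in 0.676% of promoters and in 0 of the 10. In the stretches below, written in the direction of transcription, capitals mark the match, which reads as the reverse complement where it lay on the other strand.
Asns, chr6:7693214-7693243, minus strand: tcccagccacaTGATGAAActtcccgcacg
Nupr1, chr7:126625562-126625591, minus strand: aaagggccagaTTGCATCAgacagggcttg
Vldlr, chr19:27216809-27216838, plus strand: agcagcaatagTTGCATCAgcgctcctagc
Hspa5, chr2:34772020-34772048, plus strand: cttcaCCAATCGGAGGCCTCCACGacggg
Hsp90b1, chr10:86705528-86705556, minus strand: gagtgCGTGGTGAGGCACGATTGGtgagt
Nupr1, Vldlr and Hsp90b1 belong to the wider lists described further on. A match is a description of the sequence and was not tested for binding.

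CPM is used for levels: the reads of a gene in every 1000000 reads of its library, with library sizes scaled by TMM. The libraries held 4320819 to 12072443 reads in genes, so that 3 counts, taken as the detection floor, were worth 0.262 to 0.656 CPM; this covers counting error only. Des was at 973 to 3647 CPM in the 6 Des+/+ libraries and at 50.3 to 100.5 CPM in the 6 Des-/- libraries. All 10 cardiomyocyte markers were detected in every group, but their summed level was 65150 to 95990 CPM in Des+/+ non-swim, 30890 to 50200 in Des+/+ swim, 7220 to 29460 in Des-/- non-swim and 15630 to 24740 in Des-/- swim. In the same order of groups, 8 fibroblast markers summed to 3201 to 3659, 2204 to 3188, 7815 to 35810 and 3771 to 11680 CPM, and 10 genes of the cell isolation and immediate early response to 1554 to 2433, 1961 to 2184, 4536 to 8712 and 3751 to 6636 CPM. The 8 macrophage markers summed to 204.5 to 307.3, 232.9 to 286.2, 374.7 to 3924 and 203.8 to 1230 CPM, with both highest sums in replicate 3 of a Des-/- group. The 8 endothelial markers summed to 5380 to 6227, 6006 to 8909, 4411 to 6561 and 5841 to 7198 CPM, with the highest sum in Des+/+ swim replicate 2. No marker was at 0 throughout a group. In such bulk samples fewer cells of a type and less RNA per cell cannot be told apart, and the part of these marker differences in the results below was not tested.

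Per kilobase of exon, the scale on which genes can be compared, Hspa5 had the highest level of the 10, with group means of 104 to 206 CPM per kb. Atf4 followed with 59.3 to 82.0, Xbp1 with 34.1 to 45.1 and Ddit3 with 12.5 to 19.96 CPM per kb. Asns (5.68 to 11.99) and Trib3 (5.49 to 8.94) overlapped in their group means, as did Psat1 (1.69 to 4.22), Gdf15 (1.63 to 3.42) and Mthfd2 (1.47 to 3.22), so these neighbours are not ordered. Fgf21 was last in every group. It had 1 read in Des+/+ non-swim replicate 3, 4 reads in Des-/- non-swim replicate 3 and 0 in the other 10 libraries, which was not above the floor of 3 counts in 11 of the 12.

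**Figure D1:**
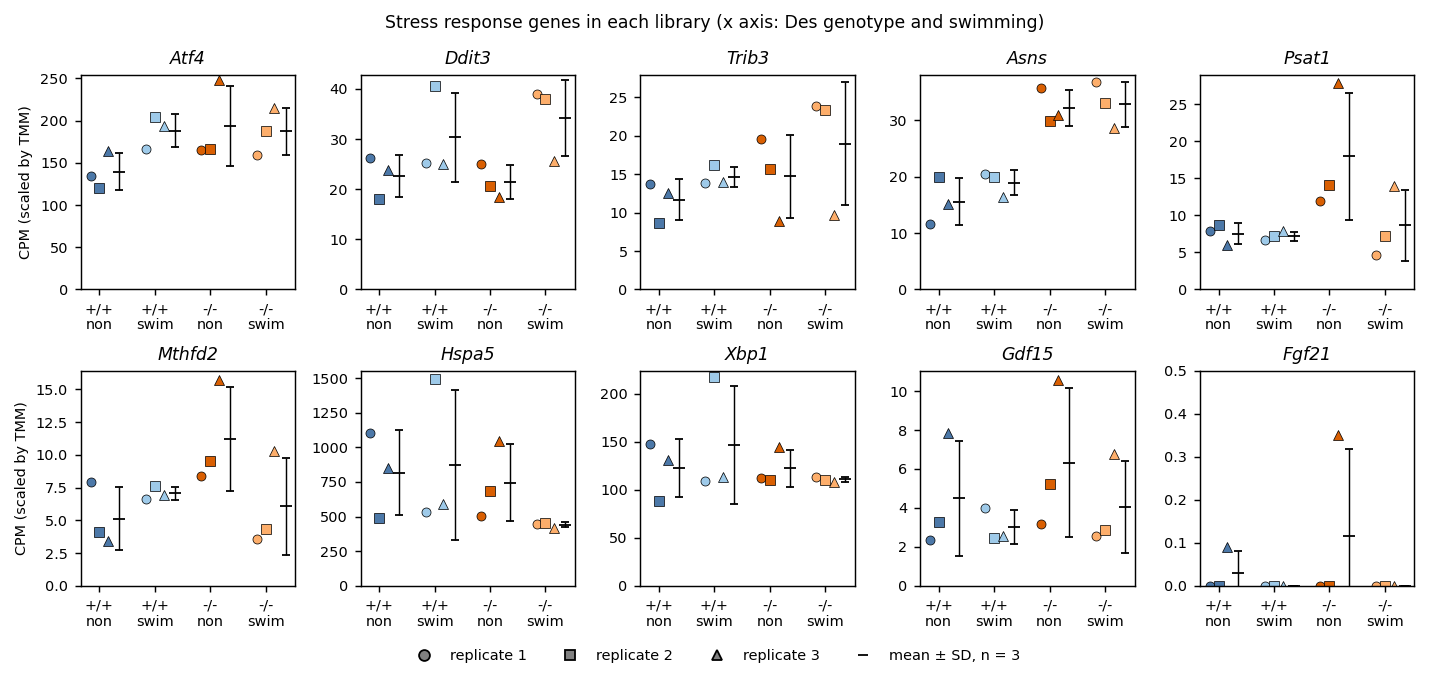
Level of each gene in every library. Each panel is 1 gene, the vertical axis is CPM, symbols are the libraries of the 4 groups (circle, square and triangle for replicates 1, 2 and 3), and the bar beside them is the group mean ± SD (n = 3). Asns was at 28.6 to 36.7 CPM in the 6 Des-/- libraries and at 11.6 to 20.6 CPM in the 6 Des+/+ libraries, whereas Hspa5 ranged from 493 to 1493 CPM within Des+/+.

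Whether loss of desmin changes these genes in cells of mice at rest was asked by comparing Des-/- non-swim with Des+/+ non-swim. Asns and Psat1, an asparagine and a serine synthesis enzyme, were higher in Des-/- cells, by 2.07-fold and 2.39-fold. The other 7 genes did not pass the test. The 2 of 9 called, both higher, compare with 32% of all 13158 genes called in this contrast (14% higher and 18% lower). The 4 of 9 whose groups did not overlap (Atf4, Asns, Mthfd2 and Psat1) compare with 47.9% of all genes, so both shares lay near the background. The median log2 change of the 9 was 0.47, against 0.04 over all genes. With the study's own filter (p no higher than 0.05, a log2 change of 0.6 or more in either direction, mean count 20 or more), which passed 32% of all genes, Mthfd2 was added.

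Asns (ENSMUSG00000029752, GRCm38 chromosome 6, 7675169 to 7693254, minus strand) makes asparagine from aspartate and glutamine. It was at 11.6, 19.9 and 15.2 CPM in Des+/+ non-swim replicates 1 to 3 and at 35.7, 29.8 and 31.0 CPM in Des-/- non-swim. Every Des-/- library was above every Des+/+ library. The log2 change was 1.05 ± 0.20 (SE, 95% CI 0.62 to 1.48, adjusted p = 0.002731), and the call held in all 12 fits that left out 1 library, at 0.87 to 1.26.

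Psat1 (ENSMUSG00000024640, chromosome 19, 15904678 to 15947337, minus strand) catalyses the transamination step of serine synthesis. It was at 7.90, 8.77 and 5.96 CPM in Des+/+ non-swim and at 11.9, 14.2 and 27.8 CPM in Des-/- non-swim, and the groups did not overlap. The log2 change was 1.26 ± 0.40 (SE, 95% CI 0.38 to 2.13, adjusted p = 0.0332). The highest library, Des-/- non-swim replicate 3, was also the one with the highest macrophage sum, 3924 CPM, and without it the change was 0.79 (adjusted p = 0.1444). The call was also lost without Des+/+ non-swim replicate 1 (1.29, adjusted p = 0.07269), replicate 2 (1.38, adjusted p = 0.06655) or replicate 3 (1.10, adjusted p = 0.1125).

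Mthfd2 (ENSMUSG00000005667, chromosome 6, 83305691 to 83325908, minus strand) oxidises methylene-tetrahydrofolate in mitochondria. It was at 7.90, 4.09 and 3.43 CPM in Des+/+ non-swim and at 8.40, 9.51 and 15.7 CPM in Des-/- non-swim, without overlap but with the closest libraries nearly level. The log2 change was 1.13 ± 0.44 (SE, adjusted p = 0.06642). It passed without Des+/+ non-swim replicate 1 (1.57, adjusted p = 0.03238) or without Des-/- swim replicate 3 (1.13, adjusted p = 0.02934).

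Psat1 and Mthfd2 varied together over the 12 libraries (Pearson r = 0.854, permutation p = 0.00028, adjusted 0.00112; Spearman rho = 0.846, permutation p = 0.00104, adjusted 0.00416), and r was 0.732 without the 2 libraries farthest from the median of Psat1. Within Des-/- r was 0.985 (n = 6, exact permutation p = 0.00278, adjusted 0.0111; rho = 0.943, p = 0.0167, adjusted 0.0667). Within Des+/+ the relation did not hold (r = 0.253, exact permutation p = 0.607, adjusted 0.622; rho = 0.371, p = 0.497, adjusted 0.497). This was 1 of 4 relations computed, chosen after the values were seen, with p-values adjusted over the 4. The adjustment does not cover that choice. Libraries were permuted across groups, so differences between groups enter the p-values of all 4 relations. In both Des-/- groups replicate 3 had the highest Psat1 and Mthfd2 levels as well as the highest macrophage sum.

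Atf4 (ENSMUSG00000042406, chromosome 15, 80255184 to 80257541, plus strand) was at 134.7, 120.7 and 163.7 CPM in Des+/+ non-swim and at 165.0, 166.8 and 248.1 CPM in Des-/- non-swim. The groups did not overlap, although the lowest Des-/- library lay barely above the highest Des+/+ library. The log2 change of 0.47 ± 0.19 (SE, 95% CI 0.05 to 0.89) did not pass (adjusted p = 0.08197). Atf4 and Asns, a known target of ATF4, were not related over the 12 libraries (r = 0.371, permutation p = 0.237, adjusted 0.237; rho = 0.224, permutation p = 0.483, adjusted 0.483), and r was 0.29 without the 2 farthest libraries. Within Des+/+ r was 0.26 (n = 6, exact permutation p = 0.622, adjusted 0.622) and within Des-/- it was -0.597 (exact permutation p = 0.218, adjusted 0.218).

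Ddit3 and Trib3, downstream of ATF4 and used as readouts of a sustained response, did not separate the genotypes. Ddit3 (ENSMUSG00000025408, chromosome 10, 127290774 to 127296288, plus strand) was at 26.2, 18.0 and 23.7 CPM in Des+/+ non-swim and at 25.1, 20.6 and 18.5 CPM in Des-/- non-swim (log2 change -0.08, 95% CI -0.61 to 0.44, adjusted p = 0.818). Its exons overlap those of Mars1 on the opposite strand and share 105 bases with a second annotated gene of the same symbol, so its count is uncertain. Trib3 (ENSMUSG00000032715, chromosome 2, 152337422 to 152344032, minus strand) was at 13.8, 8.65 and 12.5 CPM against 19.6, 15.7 and 8.92 CPM (log2 change 0.33, 95% CI -0.44 to 1.11, adjusted p = 0.5021). The Trib3 groups overlapped, Des-/- replicate 3 being the lowest of its group.

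The ER genes showed no shift with genotype at rest. Hspa5 (ENSMUSG00000026864, chromosome 2, 34771970 to 34777547, plus strand) was at 1105, 493 and 851 CPM in Des+/+ non-swim and at 504, 685 and 1049 CPM in Des-/- non-swim. Both groups covered nearly the same range, and the interval of the log2 change, -1.04 to 0.78 around -0.13 (adjusted p = 0.8367), leaves room for a change of either sign. Xbp1 (ENSMUSG00000020484, chromosome 11, 5520659 to 5525893, plus strand) had group means of 122.6 ± 30.6 and 122.1 ± 18.9 CPM (SD, n = 3; 95% CI of the log2 change -0.58 to 0.57). Gdf15 (ENSMUSG00000038508, chromosome 8, 70629393 to 70632456, minus strand), a circulating stress hormone, was at 2.36, 3.27 and 7.85 CPM against 3.19, 5.21 and 10.6 CPM (adjusted p = 0.5376). Replicate 3 was the highest in both groups. Fgf21 (ENSMUSG00000030827, chromosome 7, 45613886 to 45615490, minus strand), a hormone of fasting and mitochondrial stress, was too low to compare.

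**Figure D2:**
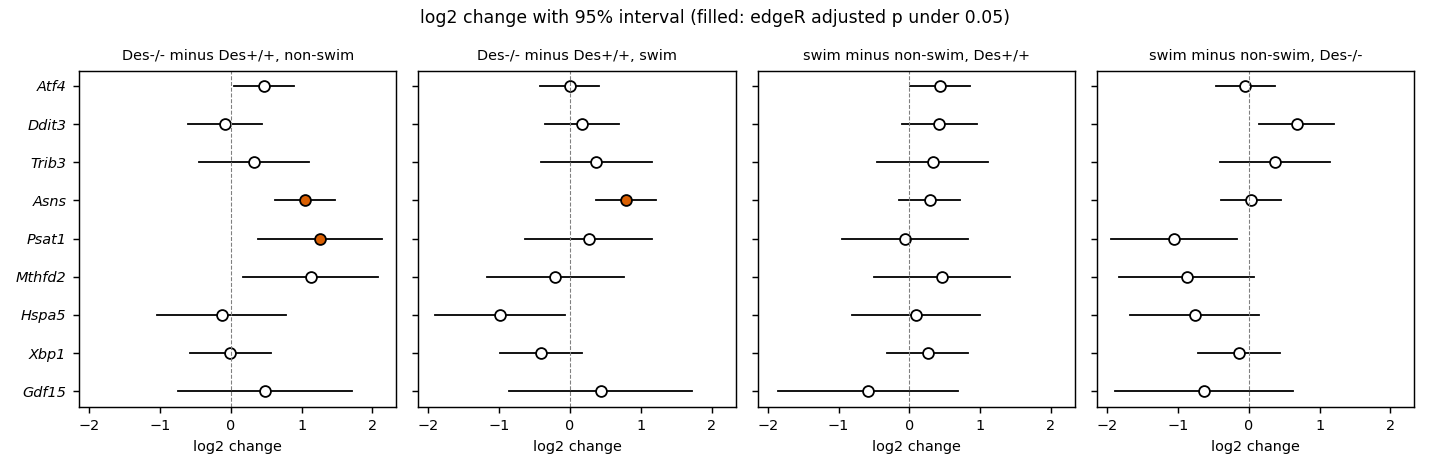
Log2 change of the 9 tested genes in the 2 genotype and the 2 swimming comparisons. Circles are the edgeR estimates and lines their 95% confidence intervals, filled where the gene was called; the dashed line is no change. Asns was 1.05 higher in Des-/- cells without swimming and 0.79 higher after it, and Psat1 was 1.26 higher without swimming.

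After swimming, Asns was the member that differed between genotypes, 1.73-fold higher in Des-/- cells, and Hspa5 was lower in every Des-/- library without passing the test. The 1 of 9 called compares with 10.6% of all genes (5.01% higher and 5.57% lower), and the 2 of 9 without overlap, Asns and Hspa5, with 35.9%. The median log2 change of the 9 was 0.17, against 0.02 over all genes. The study's filter, which passed 17.6% of all genes here, kept Asns and Hspa5.

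Asns was at 20.6, 19.9 and 16.4 CPM in Des+/+ swim and at 36.7, 33.0 and 28.6 CPM in Des-/- swim (log2 change 0.79 ± 0.20, SE, 95% CI 0.36 to 1.22, adjusted p = 0.02973). The groups did not overlap, and the change stayed between 0.69 and 0.88 when any library was left out, but the adjusted p rose above the threshold without Des+/+ swim replicate 1 (0.06099), 2 (0.06035) or 3 (0.1144) and without Des-/- swim replicate 1 (0.08882) or 2 (0.0693). In the same order, these fits called 561, 817, 74, 505 and 637 genes over all, against 1392 with every library.

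Hspa5 was at 530, 1493 and 589 CPM in Des+/+ swim and at 450, 451 and 419 CPM in Des-/- swim. The 3 Des-/- libraries lay close together (439.8 ± 18.3 CPM, SD) below a Des+/+ group set apart by its replicate 2. The log2 change was -0.99 ± 0.42 (SE, adjusted p = 0.1382 in the edgeR fit), and -0.35 (adjusted p = 0.5402) without that library. Des+/+ swim replicate 2 also had the highest endothelial marker sum, 8909 CPM, whose part in these values was not tested. Xbp1 was also highest there, at 217 CPM against 109 to 113 CPM in the other swim libraries (log2 change between genotypes -0.40, adjusted p = 0.3227). Psat1 (0.26), Mthfd2 (-0.21), Atf4 (-0.01), Ddit3 (0.17), Trib3 (0.37) and Gdf15 (0.43) had log2 changes that did not pass.

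Hspa5 and the other ER chaperones varied together over the 12 libraries, although not within every group: in Des-/- swim, replicate 3 had the lowest Hspa5 level (419 CPM) and the highest list mean (6.46). The mean log2 CPM of a list of 20 ER chaperones and folding enzymes was highest in Des-/- non-swim replicate 3 (7.13) and Des+/+ swim replicate 2 (7.09) and lowest in Des+/+ non-swim replicate 2 (6.13), with 1049, 1493 and 493 CPM of Hspa5 in these libraries. Over the 12 libraries Pearson r was 0.849 (permutation p = 7e-04, adjusted 0.0014) and Spearman rho 0.65 (permutation p = 0.0253, adjusted 0.0338); without the 2 farthest libraries r was 0.764. Within Des+/+ r was 0.996 (n = 6, exact permutation p = 0.00139, adjusted 0.00556; rho = 1, p = 0.00278, adjusted 0.0111), and within Des-/- 0.927 (n = 6, exact permutation p = 0.0222, adjusted 0.0444; rho = 0.714, p = 0.136, adjusted 0.136). The relation of Hspa5 to the list was also 1 of the 4 chosen after the values were seen. Its permutations ran across swim and non-swim libraries, and its p-values do not cover the choice. Among 12157 genes, the pattern of log2 CPM most like that of Hspa5 belonged to Hyou1 (r = 0.965), an ER chaperone, Sel1l (r = 0.931), the adaptor of an ER ubiquitin ligase, and Hnrnpc (r = 0.931). For Atf4 it was that of Tgfb1 (r = 0.934), Plk3 (r = 0.917) and Irf8 (r = 0.916), and for Ddit3 that of Adcy4 (r = 0.947), Prr14 (r = 0.941) and Eng (r = 0.933).

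**Figure D3:**
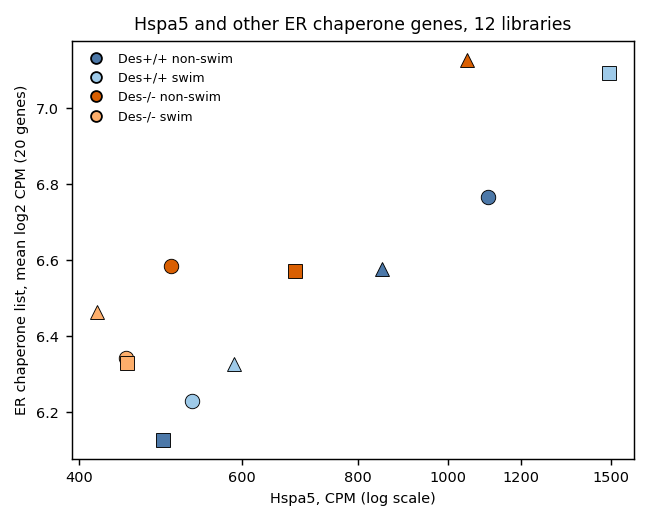
Hspa5 against the ER chaperone list in the 12 libraries. The horizontal axis is Hspa5 in CPM on a log scale and the vertical axis the mean log2 CPM of the 20 listed genes; colour gives the group and the marker the replicate (1 circle, 2 square, 3 triangle). The 6 Des+/+ libraries rise together from 493 to 1493 CPM of Hspa5 (r = 0.996), and the 3 Des-/- swim libraries sit together at 419 to 451 CPM.

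Ddit3 and Trib3 were also related over the 12 libraries (r = 0.763, permutation p = 0.00419, adjusted 0.00559; rho = 0.657, permutation p = 0.0237, adjusted 0.0338; r = 0.755 without the 2 farthest). Within genotypes the relation did not pass after adjustment, with r = 0.88 in Des+/+ (n = 6, exact permutation p = 0.0417, adjusted 0.0833) and r = 0.772 in Des-/- (n = 6, exact permutation p = 0.0931, adjusted 0.124). It too was 1 of the 4 relations chosen after the values were seen, which its p-values do not cover.

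Swimming itself was compared within each genotype, and 0 of the 9 genes were called by edgeR or by DESeq2. In Des+/+ DESeq2 gave no adjusted p for Gdf15 and Mthfd2, so it could not call them. In Des+/+, edgeR called 0.0912% of all genes (2697 genes at an unadjusted p under 0.05) and DESeq2 called 812 of 10297. Atf4 had 166.5, 204.4 and 193.7 CPM after swimming, all above the non-swim libraries, with a log2 change of 0.43 ± 0.19 (SE, adjusted p = 0.237 in the edgeR fit). Trib3 was the other gene without overlap (13.8, 16.2 and 14.0 CPM after swimming, log2 change 0.33, adjusted p = 0.6308); the 2 of 9 without overlap compare with 31.3% of all genes. Of the 9 genes, Atf4 alone had an unadjusted p under 0.05. The study's filter passed 10.3% of all genes and 0 of the 9. The members' median log2 change was 0.29, against -0.08 over all genes.

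In Des-/-, edgeR called 0.0228% of all genes (2201 at an unadjusted p under 0.05) and DESeq2 called 339 of 12816. Ddit3 was at 39.0, 38.1 and 25.6 CPM after swimming, each above the 3 non-swim libraries, with a log2 change of 0.68 ± 0.24 (SE, adjusted p = 0.2299 in the edgeR fit). Psat1 was at 4.69, 7.22 and 14.0 CPM after swimming, against 11.9, 14.2 and 27.8 CPM (log2 change -1.05 ± 0.40, SE; adjusted p = 0.2481 in the edgeR fit). The Psat1 groups overlapped only through replicate 3 of the swim group. These 2 genes passed the study's filter, which passed 8.6% of all genes, Ddit3 as higher and Psat1 as lower. Hspa5 also did not overlap between the groups (-0.76, adjusted p = 0.3692), which makes 2 of 9 with Ddit3, against 19.4% of all genes. Mthfd2 was at 3.56, 4.37 and 10.3 CPM after swimming (-0.88, adjusted p = 0.3307). The median log2 change was -0.14, against -0.01 over all genes.

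The difference between the 2 swimming effects was tested as an interaction. By edgeR 0% of all genes were called (2148 at an unadjusted p under 0.05, smallest adjusted p = 0.1737). DESeq2 called 328 of 8537 genes. Of the 9 genes, 0 were called by edgeR or by DESeq2. Trib3 was not among the 8537 genes with an adjusted p from DESeq2, so DESeq2 could not call it. The estimates that lay farthest from 0 were those of Mthfd2 (-1.34 ± 0.62, SE, adjusted p = 0.3068), Psat1 (-0.99 ± 0.57, SE, adjusted p = 0.3911) and Hspa5 (-0.86 ± 0.59, SE, adjusted p = 0.4635). No swimming effect on these genes was therefore shown to differ between genotypes.

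The 7 wider lists of the same pathways, 131 genes of which 127 were tested, were described beside the 10. In Des-/- cells without swimming 15 were called higher and 32 lower, 37% against 32% of all genes. After swimming 5 were higher and 19 lower, 18.9% against 10.6%. In both swimming comparisons and the interaction 0 were called by edgeR (25, 17 and 19 at an unadjusted p under 0.05). For swimming in Des+/+ DESeq2 called 11, against 812 of 10297 over all genes. For swimming in Des-/- it called 1, against 339 of 12816. Changes quoted beside these genes are log2 changes of Des-/- against Des+/+, and the 12 fits are those that each left out 1 library. Over all genes these fits called from 2612 of 13374 to 4590 of 13359 without swimming. After swimming they called from 74 of 13452 to 2142 of 13296, so a lost call is not particular to a gene. Without swimming the mitochondrial chaperones and proteases had 0 genes called higher and 12 lower of 14, where 18% of all genes were lower. The ER chaperones had 2 higher and 0 lower of 20, where 14% of all genes were higher, and 1 higher without Des-/- non-swim replicate 3. Over the 7 lists that fit had 3 called higher and 30 lower. It called 2805 of 13296 genes in all, against 4210 of 13158 with every library.

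**Figure D4:**
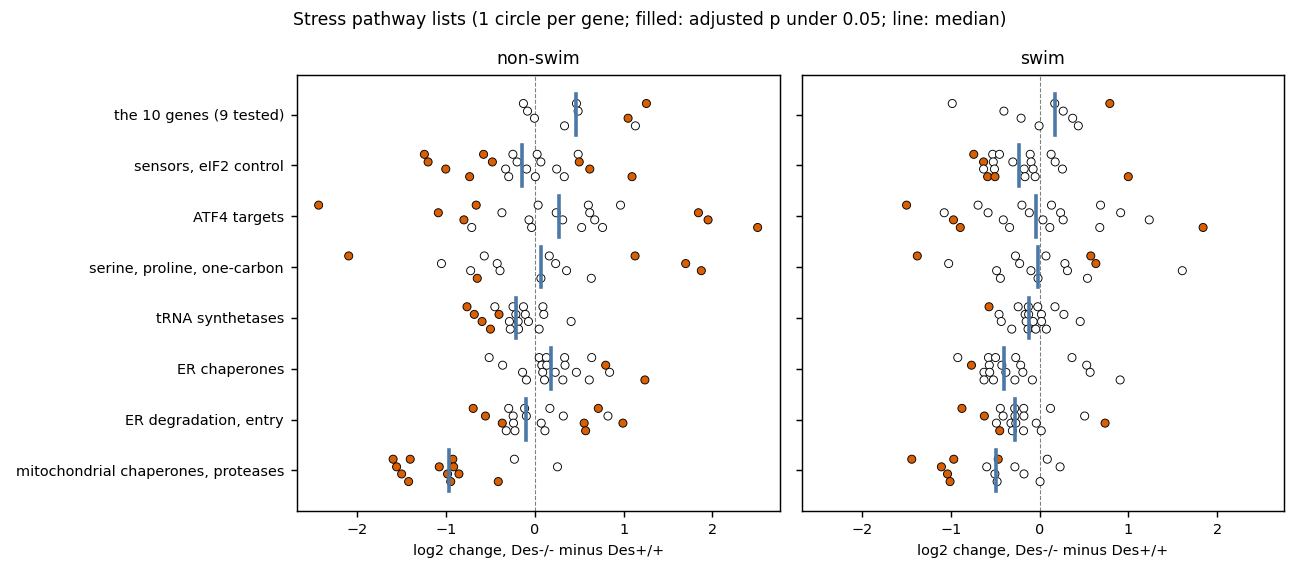
Log2 change of each tested gene of the 10 and of the 7 wider lists in the 2 genotype comparisons, non-swim on the left and swim on the right. The horizontal axis is the log2 change of Des-/- against Des+/+, each circle is 1 gene (filled where the adjusted p was under 0.05; vertical position within a row carries no value), and the blue line is the list's median. In the mitochondrial list 12 of 14 circles are filled without swimming and 6 of 14 after it, all left of 0.

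Of 14 genes of the mitochondrial unfolded protein response, 12 were lower in Des-/- without swimming (median log2 change -0.97, against 0.04 over all genes). After swimming 6 were lower (median -0.49), where 5.57% of all genes were. Hspa9, the import motor mortalin, was at 918.8 ± 128.6 CPM in Des+/+ non-swim and 303.8 ± 75.5 CPM in Des-/- non-swim (SD, n = 3; log2 change -1.60, adjusted p = 0.0008801). Clpx, the unfoldase of the ClpXP protease, changed by -1.56 (adjusted p = 0.0007744), and Hspd1, the chaperonin Hsp60, by -1.5 in non-swim cells (adjusted p = 0.001176) and by -1.44 in swim cells (adjusted p = 0.0106). These calls held in all 12 fits that left out 1 library. Hspe1, the co-chaperonin Hsp10, fell by 1.11 on the log2 scale after swimming (adjusted p = 0.02087), a call lost without any 1 of the 3 Des-/- swim libraries and kept without Des+/+ swim replicate 2, where the change was -0.67, and Dnaja3, a mitochondrial Hsp40, by 1.04 (adjusted p = 0.01741), a call lost without Des+/+ swim replicate 3. The cardiomyocyte markers fell alongside, 9 of 10 called lower without swimming and 1 of 10 after it, where 18% and 5.57% of all genes were. Their part in these values was not tested.

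Of 20 sensors and regulators of eIF2α, 3 were higher and 6 lower without swimming, and 1 higher and 4 lower after it. Over all genes 14% were higher and 18% lower without swimming, and 5.01% higher and 5.57% lower after it. Ppp1r15a, the GADD34 subunit that directs dephosphorylation of eIF2α, rose from 80.2 ± 17.1 to 171.3 ± 67.7 CPM (log2 change 1.09, adjusted p = 0.01272), a call that held in all 12 fits. Eif2ak3, the ER kinase PERK (0.50, adjusted p = 0.01726), and Eif2ak2, the double-stranded RNA kinase PKR (0.62, adjusted p = 0.04683), were also higher, but kept the call in 9 and 3 of the 12 fits. Without Des-/- non-swim replicate 3, 1 gene of the list was called higher and 6 lower, where 2805 of 13296 genes were called over all. The genes that fell most were Dele1 (-1.24, adjusted p = 0.001616) and Oma1 (-1.20, adjusted p = 0.001432), which relay mitochondrial damage to the kinase HRI, and the ER sensor Atf6 (-1.0, adjusted p = 0.001192), each in all 12 fits. After swimming Ppp1r15a was 0.998 higher (adjusted p = 0.04376, 4 of 12 fits), and Atf6 (-0.74, adjusted p = 0.01746, 9 of 12 fits), Ppp1r15b, the constitutive partner of the same phosphatase (-0.63, adjusted p = 0.04896, 3 of 12), and Gcn1, an activator of the kinase GCN2 (-0.59, adjusted p = 0.04149, 2 of 12), were lower. The isolation and immediate early list moved with Ppp1r15a, with 8 of 10 genes called higher without swimming and 7 of 10 after it, and its part in this value was not tested.

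Of the 20 tested target genes of ATF4, 3 were higher and 4 lower without swimming (median log2 change 0.28), near the 14% and 18% of all genes. After swimming 1 was higher and 3 lower (median -0.04), where 5.01% and 5.57% of all genes were. Nupr1, a small stress-induced chromatin protein whose promoter stretch is shown above, was at 8.28 ± 3.92 CPM in Des+/+ non-swim and 32.2 ± 12.8 CPM in Des-/- non-swim (1.95, adjusted p = 0.009199, all 12 fits), and 1.84 higher after swimming (adjusted p = 0.03112, 7 of 12 fits). Vldlr, a lipoprotein receptor with the same element, went the other way, from 404.9 to 74.9 CPM on average (-2.44 ± 0.44, SE, adjusted p = 0.00229, all 12 fits), and was lower after swimming (-1.5, adjusted p = 0.04615, 3 of 12 fits). Herpud1, a component of ER-associated degradation, fell by 1.09 (adjusted p = 0.004597, all 12 fits) and 0.97 (adjusted p = 0.02421, 7 of 12), and Slc38a2, an amino acid transporter, fell by 0.80 (adjusted p = 0.0155, lost without Des+/+ non-swim replicate 3) and 0.89 (adjusted p = 0.0269, 7 of 12). Atf3 was called higher without swimming (2.51, adjusted p = 0.04597), although its groups overlapped, and kept the call in 4 of the 12 fits, with changes from 0.79 without Des-/- non-swim replicate 3 to 3.21 without Des+/+ non-swim replicate 3. Of the 17 ATF4 targets with a promoter, 7 held TGATGNAA, among them Nupr1 and Atf3, called higher, and Vldlr and Herpud1, called lower.

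Among 15 other serine, proline and one-carbon genes, 3 were higher and 2 lower without swimming, where 14% of all genes were higher and 18% lower. Phgdh, the first enzyme of serine synthesis and the step before Psat1, was at 2.87 ± 1.31 CPM in Des+/+ non-swim and 9.34 ± 4.35 CPM in Des-/- non-swim (1.70, adjusted p = 0.0232), whereas Psph, the step after it, fell by 0.65 (adjusted p = 0.04377, 3 of 12 fits). Pycr1 (1.87, adjusted p = 0.02305) and Aldh18a1 (1.13, adjusted p = 0.01398), both of proline synthesis, were higher. Phgdh kept its call in 9 of the 12 fits and the other pair in 10. Without Des-/- non-swim replicate 3, 0 genes of this list were called higher, where 2805 of 13296 genes were called over all. The lowest changes of Phgdh, Pycr1 and Aldh18a1 over the 12 fits were 1.26, 1.53 and 0.80. Mtr, methionine synthase, fell from 216.0 ± 31.4 to 50.5 ± 14.9 CPM (-2.10, adjusted p = 0.0006646), and by 1.38 after swimming (adjusted p = 0.008866), in all 12 fits each. After swimming 2 genes of the list were higher and 1 lower, where 5.01% and 5.57% of all genes were. The mitochondrial serine carrier Sfxn1 (0.58, adjusted p = 0.0409, 4 of 12 fits) was among the higher.

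The aminoacyl-tRNA synthetases, several of which are ATF4 targets, had 0 of 19 called higher and 5 lower without swimming. Over all genes 14% were higher and 18% lower. The phenylalanine, isoleucine and methionine enzymes Farsb (-0.76, adjusted p = 0.00239), Iars (-0.68, adjusted p = 0.008367) and Mars1 (-0.59, adjusted p = 0.007199) were the largest of these changes and held in all 12 fits. After swimming Iars was the 1 gene of 19 called (-0.57, adjusted p = 0.04406, 4 of 12 fits), where 10.6% of all genes were called.

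Of 20 ER chaperones, Txndc5, a disulfide isomerase, was at 113.7 ± 2.6 CPM in Des+/+ non-swim and 268.4 ± 108.5 CPM in Des-/- non-swim (1.24, adjusted p = 0.005489, all 12 fits), and the cyclophilin Ppib was 0.80 higher (adjusted p = 0.01952, lost without Des+/+ non-swim replicate 2 or Des-/- non-swim replicate 3). Fibroblast markers, 8 of 8 called higher where 14% of all genes were, moved with them. Of the 20 estimates, 16 were positive without swimming (median 0.18, against 0.04 over all genes). After swimming 16 were negative (median -0.40, against 0.02 over all genes), with 1 called, where 10.6% of all genes were. The called gene was the co-chaperone Dnajb9 (-0.77, adjusted p = 0.0324, 6 of 12 fits). The list's mean log2 CPM was 6.23, 7.09 and 6.33 in Des+/+ swim replicates 1 to 3 and 6.34, 6.33 and 6.46 in Des-/- swim. Des+/+ swim replicate 2 thus stood apart from the other swim libraries. The ER stress response element of Hspa5 and Hsp90b1 was in the promoters of 5 of 15 genes of this list, and 0 of those 5 were called.

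The 19 tested genes of ER-associated degradation had 4 higher and 3 lower without swimming, near the 14% and 18% of all genes. The channel subunits Sec61b (0.99, adjusted p = 0.01801) and Sec61a1 (0.71, adjusted p = 0.03054) and the lectin Os9 (0.57, adjusted p = 0.03965) were among those higher, and kept the call in 10, 9 and 5 of the 12 fits. Without Des-/- non-swim replicate 3 none of these 3 was called, and 0 genes of the list were called higher and 2 lower. Over all genes that fit called 2805 of 13296. Nploc4 (-0.56, adjusted p = 0.00764) and Ufd1 (-0.37, adjusted p = 0.01765), cofactors of the segregase VCP, were lower, Nploc4 in all 12 fits and Ufd1 in 9. After swimming 1 gene of the list was higher and 3 lower, where 5.01% and 5.57% of all genes were. Edem2 (0.74, adjusted p = 0.02151) was higher, and Edem3 (-0.88, adjusted p = 0.02748) and Herpud2 (-0.45, adjusted p = 0.03262) were among the lower, in 6 or 7 of the 12 fits. Over all 7 lists the 24 calls after swimming became 3 without Des+/+ swim replicate 3. The calls over all genes fell from 1392 of 13158 to 74 of 13452 in the same fit.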

How the data were processed

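Poly-A RNA of 12 cardiomyocyte libraries was measured. The authors deposited unnormalised counts per gene, made, according to their processing notes, with HISAT2 2.2.1, SAMtools 1.13 and HTSeq on GRCm38. An unstranded kit is named in the labels but a directional one, counted in reverse mode, in the methods, so reads of overlapping genes on opposite strands, such as Ddit3 and Mars1, may not be fully separated. The present tests used edgeR 4.0.16 (R 4.3.3): filterByExpr, TMM scaling, and quasi-likelihood tests of 5 contrasts in 1 model of 4 group means over 12 libraries (8 residual degrees of freedom, common biological coefficient of variation 0.271). Benjamini-Hochberg adjustment ran over all 13158 genes, with calls at an adjusted p under 0.05; DESeq2 1.42.0 was an alternative. The code was tested on simulated data. Groups followed the labels. Reads in genes ranged from 4320819 to 12072443 per library, and no 2 libraries of the same group agreed within sampling noise. The Des-/- swim libraries held the fewest, 4320819 to 6521963. Of the unique reads, 33.97% to 39.34% lay in no gene in Des+/+ non-swim and 45.87% to 50.39% in Des+/+ swim. The share was 57.18% to 64.52% in Des-/- swim and 52.32%, 49% and 34.16% in Des-/- non-swim replicates 1 to 3. The part of these differences in the results was not tested.

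The genes and lists were chosen with earlier results of these data known. From each of the wider lists, the text names up to 3 called genes with the largest change in each direction and genotype comparison, at a mean count of at least 20, and for Atf4, Ddit3 and Hspa5 the 3 genes most like them by Pearson r of log2 CPM. Of 131 listed genes, 130 were in the tables; Yars was not analysed here, and some called genes of the lists are not reported by name here. Levels per kb used the exon union of GENCODE. Same-numbered libraries deviated together only in the swimming comparison of Des-/- (r = 0.365, 0.316 and 0.602), where a replicate block changed no call among the 9 genes. Alternatives were other scalings and filters, DESeq2, only the groups compared, the study's filter, the block, and leaving out each library.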

Additional observations from a re-analysis of the deposited data

How the results depend on the processing

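Of 891 values of the 9 genes under other settings, 820 kept their direction and side of the threshold, 55 reversed, 7 became called and 9 lost the call. Values to which DESeq2 gave no adjusted p counted as not called. The reversals were of changes that were not called, and their cause was not tested. Upper-quartile scaling, which moved the median of all genes to 0.14 without and 0.12 after swimming, called 4 members without swimming, adding Atf4 (0.57, adjusted p = 0.03583) and Mthfd2 (1.22, adjusted p = 0.0468); DESeq2 also called Mthfd2 (1.15, adjusted p = 0.03254). With a replicate block Atf4 was called without swimming (0.45, adjusted p = 0.0411), 3 members in all; same-numbered libraries did not deviate together there (r = -0.153, 0.134 and -0.105), nor in the genotype comparison after swimming (0.019, 0.125 and 0.116) or in swimming of Des+/+ (-0.41, -0.257 and 0.006). Leaving out 1 library gave 1 to 3 members without and 0 to 1 after swimming. For the wider lists it gave 32 to 54 without swimming, 3 to 29 after it, and 0 to 2 for swimming in either genotype. The fits with 32, 54, 3 and 29 called 2612 of 13374, 4590 of 13359, 74 of 13452 and 2142 of 13296 over all genes. The study's filter passed 2 members after swimming and 2 for swimming in Des-/-, and 10 (Des+/+) and 7 (Des-/-) of the wider lists for swimming. For swimming in Des+/+ the wider lists also had 11 calls with DESeq2, 3 with only the groups compared and 6 without replicate 3 of both Des-/- groups. Over all genes these fits called 812 of 10297, 282 of 12548 and 743 of 13216. For swimming in Des-/- there was 1 call with DESeq2 and 1 without those replicates, against 339 of 12816 and 72 of 13216 over all genes.

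Without replicate 3 of both Des-/- groups, log2 changes reversed for Ddit3 (0.0793) and Gdf15 (-0.047) without swimming, Gdf15 (-0.15) and Psat1 (-0.29) after it, Psat1 (0.0171) for swimming in Des+/+, and Atf4 (0.0809) and Xbp1 (0.0245) for swimming in Des-/-, and Trib3 was called without swimming (0.66, adjusted p = 0.04684). Upper-quartile scaling reversed Ddit3 (0.0189) and Xbp1 (0.0912) without and Atf4 (0.0872) after swimming. Xbp1 without swimming was also 0.0068 with DESeq2 or its size factors, 0.009 with only the groups compared and 0.0543 with no filter; only the groups compared gave 0.0011 for Atf4 after swimming and 0.0097 for Psat1 in swimming of Des+/+, and no filter gave -0.0148 for the Trib3 interaction. Leaving out 1 library reversed, with the range over the 12 fits, without swimming, Ddit3 (-0.22 to 0.0293), Hspa5 (-0.46 to 0.15), Xbp1 (-0.19 to 0.15) and Gdf15 (-0.12 to 1.16); after it, Atf4 (-0.12 to 0.0946), Gdf15 (-0.16 to 0.69), Mthfd2 (-0.84 to 0.0692) and Psat1 (-0.29 to 0.57); for swimming in Des+/+, Hspa5 (-0.55 to 0.37), Xbp1 (-0.14 to 0.43), Gdf15 (-0.89 to 0.097) and Psat1 (-0.21 to 0.0588); for swimming in Des-/-, Atf4 (-0.16 to 0.18), Asns (-0.0627 to 0.12) and Xbp1 (-0.21 to 0.0002); for the interaction, Trib3 (-0.23 to 0.36), Xbp1 (-0.57 to 0.0024) and Gdf15 (-0.73 to 0.55).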
